A study of Mus musculus with 12 samples.

Results

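The transcripts of 9 chromatin regulators linked to repression by STAT6, the transcription factor that IL-4 activates, were followed in mouse bone marrow-derived macrophages. The 9 genes are Hdac1, Hdac2, Hdac3, Hdac4, Hdac5, Hdac7, Ncor1, Bcl6 and Kdm6b, and they were taken by symbol from the 23361 gene symbols of the deposited expression tables. Each had 1 row in every sample, and all 9 were among the 11191 rows that reached 1 FPKM in at least 1 sample. FPKM counts sequenced fragments relative to transcript length and to all fragments mapped in that sample, a level per length, so that levels of different genes can be set side by side.

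Macrophages were grown from the bone marrow of wild-type C57BL/6 mice aged 8 to 12 weeks, by 6 days of culture with L929 supernatant as a source of M-CSF. The 12 poly-A RNA-seq samples form 4 groups of 3: untreated control cells, cells given 20 ng/ml IL-4 for 24 h, cells given 100 ng/ml LPS for 3 h, and cells given IL-4 for 24 h and then LPS for 3 h (IL-4+LPS). The LPS dose is as labelled, and the study's methods give it in another unit. All groups, control included, share the strain, the genotype and the M-CSF culture. The design asks what IL-4 does to these regulators, what LPS does to them, and whether the LPS response differs after IL-4. The study's legend for these RNA-seq data names 3 animals from separate experiments. The labels do not tie the replicate numbers to animals, experiments or culture days, so the p-values measure the spread between these samples. The test was run without a term for the experiment, so a difference between experiments would add to that spread.

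Class I histone deacetylases (Hdac1, Hdac2, Hdac3) are largely nuclear enzymes that remove acetyl groups from histone tails and work inside multiprotein corepressor complexes. HDAC3 is the catalytic subunit of the NCoR complex, in which NCOR1 is a scaffold, while HDAC1 and HDAC2 sit in the SIN3, NuRD and CoREST complexes. Class IIa deacetylases (Hdac4, Hdac5, Hdac7) have little catalytic activity of their own, shuttle between cytoplasm and nucleus, and bind MEF2 transcription factors. BCL6 is a DNA-binding repressor that recruits NCOR1 and BCOR and opposes inflammatory genes in macrophages. KDM6B (JMJD3) removes the repressive methyl marks of histone H3 lysine 27 and is known as an LPS- and IL-4-responsive gene in macrophages.

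The libraries were checked before the members were compared. FPKM totals lay between 457583 and 495025, and relative depth, judged from the smallest steps of low values, ran from 0.99 to 3.30, with replicate 1 of every group the shallowest. Replicate 1 also stood apart in expression: the mean correlation within groups was 0.977 between replicates 2 and 3 and 0.959 for pairs with replicate 1. Of 17 markers of other cell types, 13 stayed under 1 FPKM in every sample, T cell, B cell, mast cell and fibroblast markers among them, while 6 macrophage markers were abundant. Neutrophil markers (Mpo, Elane, Ngp) summed to between 58.1 and 120.4 FPKM in control, 21.8 and 57.7 with IL-4, 57.7 and 140.5 with LPS and 44.1 and 104.2 with both agents, and dendritic cell markers (Flt3, Zbtb46) to at most 0.25 in control and between 2.11 and 2.94 in IL-4+LPS. Their part in the results was not tested. Retnla and Arg1, genes that mark the response to IL-4, lay at most at 19.5 and 0.26 FPKM in samples without IL-4 and at least at 9556 and 15.1 with it. In bulk samples, fewer cells of a type and less RNA per cell cannot be told apart.

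The 3 contrasting patterns among the members were a strong loss of Hdac5 with LPS, a rise of Bcl6 with LPS that was seen only without IL-4 pretreatment, and a Kdm6b level that was highest where LPS followed IL-4. Levels were compared on log2(FPKM + 1) with limma over all rows, with adjusted p under 0.05 as the threshold; this scale understates the change of low genes such as Hdac4 and Kdm6b. After IL-4, 1 member rose and 4 fell (Hdac2 up, Hdac5, Hdac7, Ncor1 and Bcl6 down), where 16.0% of all rows rose and 21.0% fell. After LPS, 4 members rose (Hdac1, Hdac2, Bcl6, Kdm6b) and 5 fell (Hdac3, Hdac4, Hdac5, Hdac7, Ncor1), against 16.9% and 57.7% of all rows. When LPS followed IL-4, 2 members rose (Hdac1, Kdm6b) and 4 fell (Hdac3, Hdac5, Ncor1, Bcl6) relative to IL-4 alone, against 15.0% and 57.9%. IL-4+LPS cells set against LPS cells had 1 member higher (Kdm6b) and 2 lower (Hdac5, Bcl6), against 15.0% and 15.8%. The LPS response itself differed with IL-4 for 1 member, Bcl6, against 4.58% of all rows with a higher and 4.63% with a lower LPS response after IL-4.

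**Figure D1:**
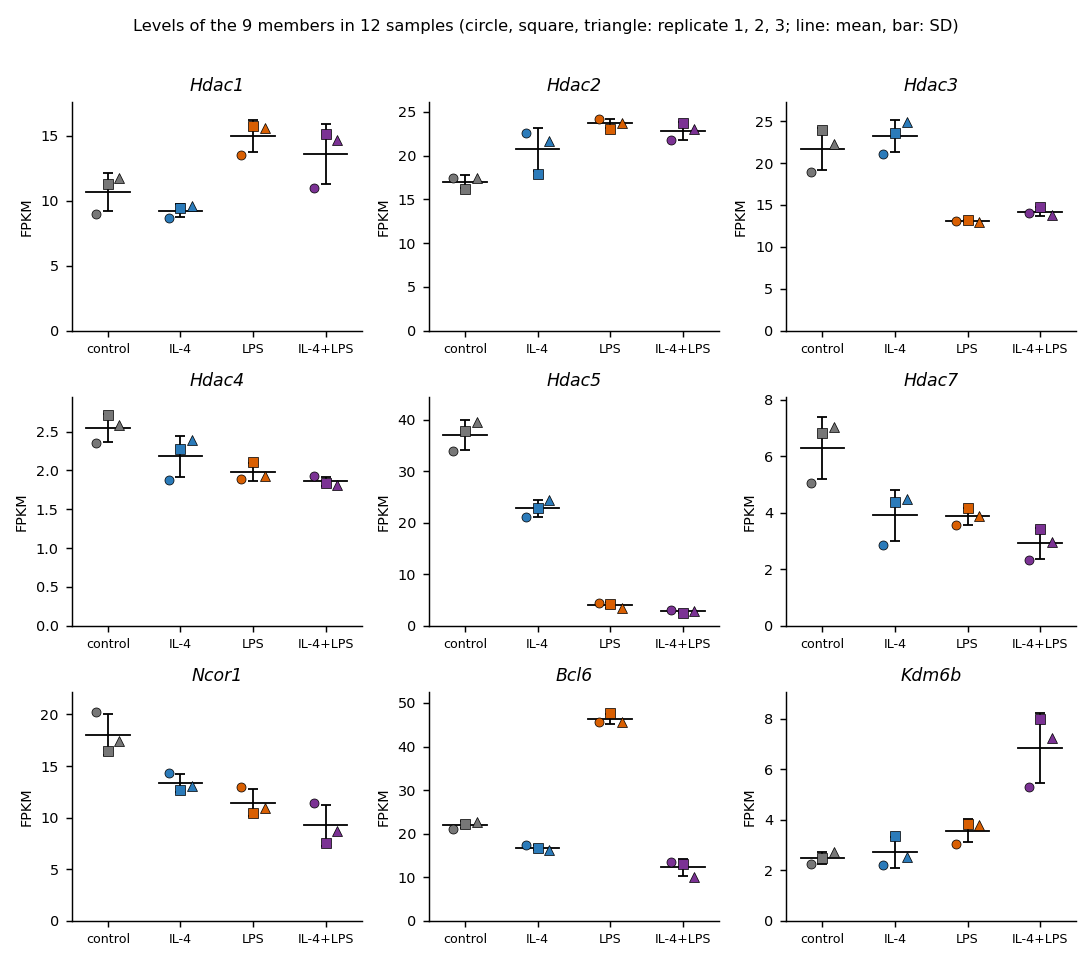
Level of each member in FPKM (vertical axes, starting at 0) in the 12 samples, by group; points are samples, with a circle, square and triangle for replicates 1, 2 and 3, and lines and bars give the mean and SD. Hdac5 was highest in control (33.8 to 39.5) and lowest in IL-4+LPS (2.38 to 3.11), Bcl6 was highest in LPS (45.7 to 47.6), and Kdm6b was highest in IL-4+LPS (5.29 to 7.98).

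Most rows lost FPKM with LPS, which bears on every LPS comparison here. The median log2 difference of all rows was -0.44 for LPS against control and -0.41 for IL-4+LPS against IL-4, so LPS differences of the members are also given relative to it. Scaling every sample by its median ratio, or quantile normalization, moved the share of higher rows among the called rows from 22.6% to 42.4% or 40.2% for LPS against control and from 20.6% to 43.3% or 37.1% for IL-4+LPS against IL-4. Median differences of the 9 members were -0.19 for IL-4 (all rows -0.05), -0.25 for LPS, -0.32 for LPS after IL-4, -0.14 for IL-4+LPS against LPS (all rows -0.03) and 0.10 for the difference between the LPS responses (all rows 0.04).

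**Figure D2:**
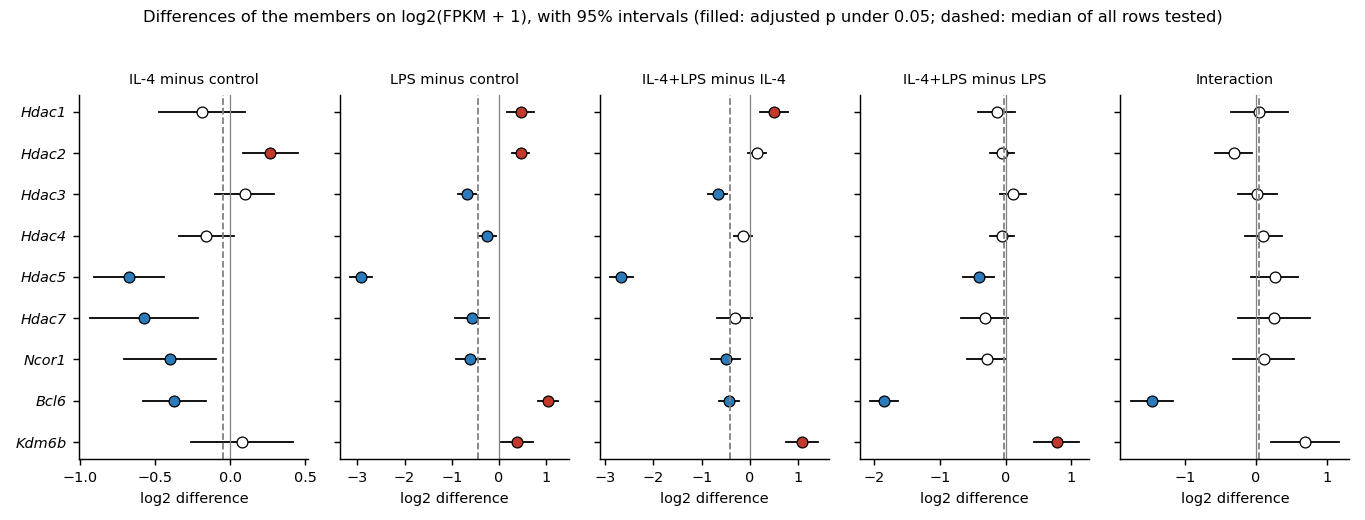
Difference of each member in 5 comparisons on log2(FPKM + 1) (horizontal axes, which differ in range), with 95% intervals from limma; filled points passed adjusted p under 0.05, red higher and blue lower, and the dashed line is the median of all rows tested. The interaction subtracts the LPS effect in cells without IL-4 from that in pretreated cells: Bcl6 lay at -1.48 and Kdm6b, which is unfilled, at 0.69.

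Bcl6, the DNA-binding repressor among the members, was the one whose LPS response differed with IL-4 past the threshold. The bases before its RefSeq start sites are shown because IL-4 signals through a STAT factor. Bcl6 was chosen for this after its LPS response was seen to differ with IL-4. Capitals mark matches to the STAT motif TTCNNNGAA, which reads the same on both strands; the sequences run 5′ to 3′ on the minus strand of GRCm38.p6 and are RefSeq's.
Bcl6, chr16:23988853-23989102: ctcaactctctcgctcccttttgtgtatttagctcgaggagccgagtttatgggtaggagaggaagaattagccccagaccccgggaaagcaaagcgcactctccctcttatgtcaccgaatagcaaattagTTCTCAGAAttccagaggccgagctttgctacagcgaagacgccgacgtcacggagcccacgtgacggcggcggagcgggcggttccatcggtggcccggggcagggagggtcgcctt
Bcl6, chr16:23981284-23981533: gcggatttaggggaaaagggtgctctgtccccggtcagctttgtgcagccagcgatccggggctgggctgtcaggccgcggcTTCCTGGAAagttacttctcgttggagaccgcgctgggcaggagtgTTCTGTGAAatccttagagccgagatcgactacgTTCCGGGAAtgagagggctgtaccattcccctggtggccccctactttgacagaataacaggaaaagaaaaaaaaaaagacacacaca
The first stretch ends at the base before an outer start site (16:23988852), 240 bases from the start listed in the expression tables. The second ends before an inner start site, 7329 bases into the gene. The outer stretch held 1 match (TTCTCAGAA) and the inner one 3 (TTCCTGGAA, TTCTGTGAA, TTCCGGGAA). Of 32851 RefSeq windows of 300 bases, 8.3% held this motif and 11 windows (0.0335%) held it at least 3 times. The cut of 3 equals the count of the inner Bcl6 window, which is among those 11. This share is therefore a description without a test. Neither window held the form with 1 more base in the middle, TTCNNNNGAA (6.95% of all windows), the AP-1 motif TGANTCA (7.81%) or the kappa B motif (8.46%). The motif was not particular to Bcl6 among the members. TTCNNNGAA also matched in windows of Hdac7 (TTCCCTGAA, TTCCCCGAA, TTCCGGGAA) and Ncor1 (TTCCTAGAA), and the longer form in a window of Hdac4 (TTCATTAGAA). A match describes letters, and whether any factor was bound there was not measured in these samples.

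In cells without LPS, Bcl6 lay at 21.1, 22.1 and 22.8 FPKM in control and at 17.4, 16.7 and 16.2 in IL-4. With LPS it lay at 45.7, 47.6 and 45.7, and with IL-4+LPS at 13.5, 13.1 and 10.1. The 4 groups did not overlap, LPS samples being the highest and IL-4+LPS samples the lowest. LPS alone raised Bcl6 2.11-fold (log2 difference 1.04 ± 0.09 SE, limma adjusted p = 3.05e-06), or 1.49 on the log2 scale above the median of all rows. LPS after IL-4 left it 1.37-fold lower than IL-4 alone (-0.43 ± 0.09, limma adjusted p = 0.00179), a fall that lay 0.03 below the median of all rows and did not pass the threshold under median scaling (-0.04) or quantile normalization (-0.16). IL-4 alone lowered it 1.31-fold (-0.37 ± 0.09, limma adjusted p = 0.0108). IL-4+LPS cells held 26.4% of the Bcl6 level of LPS cells (-1.85 ± 0.09, limma adjusted p = 3.52e-07). The difference between both LPS responses was -1.48 ± 0.13 (limma adjusted p = 0.000148), and it stayed between -1.55 and -1.32 and past the threshold under all 20 alternatives run.

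Kdm6b, the H3K27 demethylase among the members, was low in resting cells and highest where IL-4 preceded LPS. It lay at 2.25, 2.48 and 2.71 FPKM in control and at 2.21, 3.37 and 2.52 in IL-4. It lay at 3.03, 3.84 and 3.79 with LPS and at 5.29, 7.98 and 7.23 with IL-4+LPS. All IL-4+LPS samples exceeded all others, whereas control and IL-4 samples overlapped. The dendritic cell marker Zbtb46 was also highest in IL-4+LPS, between 1.94 and 2.83 FPKM against at most 0.56 in the other groups, and its part in the Kdm6b result was not tested. Kdm6b in IL-4+LPS was 2.53-fold above IL-4 (1.08 ± 0.15, limma adjusted p = 9.47e-05) and 1.92-fold above LPS (0.77 ± 0.15, limma adjusted p = 0.00329). LPS alone raised it 1.43-fold (0.38 ± 0.15, limma adjusted p = 0.0404), a call that was lost in 8 of 21 alternatives, without control replicate 1, 2 or 3 (0.34, 0.39 and 0.43), LPS replicate 2 or 3 (0.34 and 0.34), IL-4 replicate 3 or IL-4+LPS replicate 3 (both 0.38) or with no expression filter (0.38). IL-4 alone gave a difference of 0.08 (95% interval -0.26 to 0.42, limma adjusted p = 0.731). The LPS response after IL-4 exceeded that without it by 0.69 ± 0.22, which did not pass the threshold (limma adjusted p = 0.0735) but did without IL-4 replicate 2 (0.82, 0.0485) or IL-4+LPS replicate 1 (0.84, 0.0198) and with replicates 2 and 3 only (0.71, 0.0212).

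Kdm6a (UTX), the other H3K27 demethylase, fell with LPS. It lay between 5.43 and 7.11 FPKM in control and between 4.72 and 6.05 in IL-4, and between 2.58 and 4.04 in LPS and 2.22 and 4.08 in IL-4+LPS. LPS lowered Kdm6a 2.02-fold (-0.84 ± 0.18, limma adjusted p = 0.00182), a call lost under quantile normalization (-0.33, adjusted p = 0.092). Within each sample, where scaling between samples plays no part, the ratio of Kdm6b to Kdm6a was 0.40 ± 0.07 (SD, n = 3) in control, 0.53 ± 0.17 with IL-4, 1.20 ± 0.39 with LPS and 2.54 ± 1.16 with both agents. Replicate 1 had the lowest ratio in every group (0.316, 0.365, 0.749 and 1.30), and IL-4+LPS samples overlapped LPS samples in this ratio.

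Among the class IIa deacetylases, Hdac5 was the most abundant of all members in resting cells and the one that fell most. The bases before its start site are shown because this window held a MEF2 motif, in capitals, and class IIa enzymes are partners of MEF2 factors. The window was thus chosen after the 11 windows of the members had been searched. Whether a MEF2 factor was bound there was not measured in these samples. The sequence is RefSeq's, 5′ to 3′ on the minus strand of GRCm38.p6.
Hdac5, chr11:102230173-102230422: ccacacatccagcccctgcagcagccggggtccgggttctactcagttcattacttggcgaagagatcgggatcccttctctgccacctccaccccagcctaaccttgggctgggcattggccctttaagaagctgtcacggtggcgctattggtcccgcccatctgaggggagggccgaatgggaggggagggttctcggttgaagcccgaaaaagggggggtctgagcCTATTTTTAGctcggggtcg
The match CTATTTTTAG began 20 bases before the start site, which is the one listed in the expression tables, and 3.19% of all RefSeq windows held a MEF2 motif on either strand. No match to the STAT, AP-1 or kappa B motifs lay in this window.

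Hdac5 lay at 33.8, 37.8 and 39.5 FPKM in control and at 21.1, 22.8 and 24.5 in IL-4. It lay at 4.33, 4.30 and 3.43 with LPS and at 3.11, 2.38 and 2.83 with IL-4+LPS. The 4 groups did not overlap, with control highest and IL-4+LPS lowest. IL-4 lowered Hdac5 1.62-fold (-0.67 ± 0.11, limma adjusted p = 0.000674). LPS lowered it 9.21-fold in cells without IL-4 (-2.92 ± 0.11, limma adjusted p = 6.81e-09) and 8.24-fold after IL-4 (-2.66 ± 0.11, limma adjusted p = 1.22e-08), which was 2.48 and 2.25 on the log2 scale below the median of all rows. These 3 calls held in all 21 alternatives. IL-4+LPS cells were 1.45-fold below LPS cells (-0.41 ± 0.11, limma adjusted p = 0.013), a call lost without IL-4+LPS replicate 2 (-0.34, adjusted p = 0.052) and with only the compared groups in the fit (adjusted p = 0.0624).

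Hdac7 was lower than Hdac5 and fell with either agent. It lay at 5.04, 6.81 and 7.03 FPKM in control and at 2.87, 4.37 and 4.49 in IL-4. It lay at 3.57, 4.17 and 3.88 with LPS and at 2.34, 3.44 and 2.97 with IL-4+LPS. Control samples exceeded all treated ones, IL-4 and LPS samples overlapped, and replicate 1 was the lowest in every group. The fall was 1.61-fold with IL-4 (-0.58 ± 0.16, limma adjusted p = 0.0183) and 1.62-fold with LPS (-0.57 ± 0.16, limma adjusted p = 0.00832). The IL-4 call was lost without IL-4 replicate 1 (-0.41), control replicate 2 (-0.52) or control replicate 3 (-0.50), with only the compared groups and under quantile normalization. The LPS fall lay 0.13 below the median of all rows and was not called under median scaling (-0.23) or quantile normalization (-0.07). IL-4+LPS cells gave -0.32 against IL-4 (95% interval -0.68 to 0.04, limma adjusted p = 0.10) and -0.32 against LPS (95% interval -0.68 to 0.04, limma adjusted p = 0.164), neither past the threshold. Both were called with replicates 2 and 3 only (-0.37 and -0.26), and the first also without IL-4 replicate 1 (-0.48, adjusted p = 0.0167), while its sign turned, uncalled, under median scaling (0.005) and quantile normalization (0.18).

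Hdac4 was, with Kdm6b, one of the lowest pair of members in control and IL-4 and the lowest member in both LPS groups. It lay at 2.35, 2.71 and 2.58 FPKM in control and at 1.88, 2.28 and 2.39 in IL-4. It lay at 1.89, 2.11 and 1.93 with LPS and at 1.93, 1.84 and 1.81 with IL-4+LPS. Control samples exceeded both LPS groups and overlapped with IL-4. LPS lowered it 1.29-fold (-0.25 ± 0.08, limma adjusted p = 0.0167), but this was 0.19 above the median of all rows, and the sign turned under median scaling (0.03, adjusted p = 0.737) and quantile normalization (0.34, adjusted p = 0.00551). The call was also lost without control replicate 2 (-0.22, adjusted p = 0.0587). IL-4 gave a difference of -0.16 (95% interval -0.34 to 0.02, limma adjusted p = 0.156), and IL-4+LPS gave -0.15 against IL-4 (limma adjusted p = 0.124) and -0.06 against LPS (limma adjusted p = 0.649). The difference from IL-4 was called lower with replicates 2 and 3 only (-0.24, adjusted p = 0.0144) and without IL-4 replicate 1 (-0.22, adjusted p = 0.0309), and higher under quantile normalization (0.37, adjusted p = 0.00414). Part of the Hdac4 exons lies opposite an antisense gene, so these low levels may hold reads of both.

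Hdac3, the catalytic subunit of the NCoR complex, did not pass the test with IL-4 and fell with LPS. It lay at 19.0, 23.9 and 22.2 FPKM in control and at 21.1, 23.6 and 24.9 in IL-4. It lay at 13.1, 13.2 and 13.0 with LPS and at 14.1, 14.8 and 13.8 with IL-4+LPS. Every sample without LPS exceeded every sample with it, and control and IL-4 overlapped. LPS lowered Hdac3 1.66-fold (-0.68 ± 0.09, limma adjusted p = 4.14e-05) and, after IL-4, 1.63-fold (-0.67 ± 0.09, limma adjusted p = 5.74e-05), which was 0.24 and 0.26 below the median of all rows and held in all 21 alternatives. For IL-4 the difference was 0.10 (95% interval -0.10 to 0.29, limma adjusted p = 0.437), and under LPS it was 0.11 (95% interval -0.09 to 0.31, limma adjusted p = 0.385).

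Hdac1 and Hdac2, the paired catalytic subunits of the SIN3, NuRD and CoREST complexes, rose with LPS. Hdac1 lay at 9.03, 11.3 and 11.8 FPKM in control, 8.67, 9.42 and 9.62 in IL-4, 13.5, 15.8 and 15.6 with LPS and 11.0, 15.2 and 14.7 with IL-4+LPS. Hdac2 lay at 17.4, 16.1 and 17.4 FPKM in control, 22.6, 18.0 and 21.6 in IL-4, 24.2, 23.1 and 23.7 with LPS and 21.8, 23.7 and 22.98 with IL-4+LPS. LPS samples of both genes exceeded all control samples, and Hdac2 in IL-4 also lay above control. LPS raised Hdac1 1.40-fold (0.45 ± 0.13, limma adjusted p = 0.0084) and Hdac2 1.39-fold (0.46 ± 0.08, limma adjusted p = 0.000499), or 0.90 above the median of all rows for each, in all 21 alternatives. After IL-4, LPS raised Hdac1 1.47-fold (0.50 ± 0.13, limma adjusted p = 0.00508), while Hdac2 gave 0.14 (95% interval -0.05 to 0.32, limma adjusted p = 0.154), a difference that was called under median scaling (0.54), under quantile normalization (0.31) and with replicates 2 and 3 only (0.23). IL-4 raised Hdac2 1.22-fold (0.27 ± 0.08, limma adjusted p = 0.0287), a call lost without control replicate 2 or 3 (0.23 and 0.28) or IL-4 replicate 1 or 3 (0.20 and 0.23), with only the compared groups, with replicates 2 and 3 only and under median scaling. IL-4 gave -0.19 for Hdac1 (95% interval -0.47 to 0.10, limma adjusted p = 0.289), and IL-4+LPS against LPS gave -0.14 for Hdac1 (limma adjusted p = 0.462) and -0.05 for Hdac2 (limma adjusted p = 0.688). The Hdac1 difference with IL-4 was called with replicates 2 and 3 only (-0.25, adjusted p = 0.0047). Hdac1 shares much of its transcript sequence with Gm10093, so its level is uncertain.

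The summed class I level overlapped between all 4 groups, while the share of Hdac3 was lower in both LPS groups. Hdac1, Hdac2 and Hdac3 together came to 49.4 ± 3.5 FPKM (SD, n = 3) in control, 53.2 ± 2.7 with IL-4, 51.7 ± 0.77 with LPS and 50.6 ± 3.5 with both agents. The share of Hdac3 in this sum was 43.9% ± 2.5 in control, 43.7% ± 3.0 with IL-4, 25.3% ± 0.50 with LPS and 28.1% ± 1.7 with both agents, with no overlap between samples with and without LPS. Class IIa levels summed to 45.9 ± 4.1, 28.9 ± 2.8, 9.87 ± 0.68 and 7.55 ± 0.16 FPKM in the same order. Within each sample the class IIa sum was thus 0.93 ± 0.03 of the class I sum in control, 0.54 ± 0.04 with IL-4, 0.19 ± 0.01 with LPS and 0.15 ± 0.01 with both agents, and the 4 groups did not overlap. These sums and ratios are descriptions without a test. The class IIa sum was mostly Hdac5 in control (mean 37.0 FPKM) and with IL-4 (22.8). In the LPS groups it was not: means of Hdac5 and Hdac7 were 4.02 and 3.875 FPKM with LPS and 2.77 and 2.92 with both agents.

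**Figure D3:**
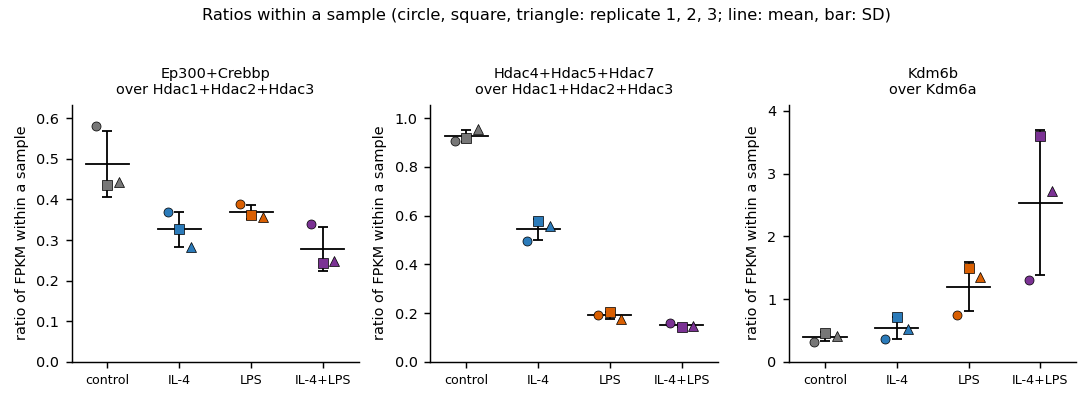
Ratios of FPKM within each sample (vertical axes, starting at 0) by group; points are samples, with a circle, square and triangle for replicates 1, 2 and 3, and lines and bars give the mean and SD. Class IIa over class I deacetylases was 0.93 in control and 0.15 in IL-4+LPS, while the mean of Kdm6b over Kdm6a was higher in both LPS groups.

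Ncor1, a scaffold of the NCoR complex, was highest in resting cells. It lay at 20.3, 16.4 and 17.4 FPKM in control and at 14.3, 12.7 and 13.1 in IL-4. It lay at 12.9, 10.4 and 11.0 with LPS and at 11.5, 7.58 and 8.71 with IL-4+LPS. Control samples exceeded all others, LPS and IL-4+LPS samples overlapped, and replicate 1 was the highest in every group. LPS lowered Ncor1 1.58-fold (-0.61 ± 0.14, limma adjusted p = 0.00197) and, after IL-4, 1.44-fold (-0.50 ± 0.14, limma adjusted p = 0.00698), or 0.17 and 0.10 below the median of all rows. Under median scaling neither fall was called (-0.23 and -0.12), nor was the second under quantile normalization (-0.15). IL-4 lowered it 1.35-fold (-0.40 ± 0.14, limma adjusted p = 0.0407), which was lost in 8 of 21 alternatives: without control replicate 1 (-0.32) or 3 (-0.42), any IL-4 replicate (-0.45, -0.37 and -0.39), LPS replicate 3 or IL-4+LPS replicate 3, and with no expression filter (all 3 -0.40). IL-4+LPS against LPS gave -0.29 (95% interval -0.60 to 0.01, limma adjusted p = 0.136), which was called without IL-4+LPS replicate 1 (-0.44, adjusted p = 0.0166) and with replicates 2 and 3 only (-0.36).

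Other subunits of the NCoR complex did not move alike. Tbl1xr1, an exchange factor of the complex, fell 5.53-fold with LPS, from 7.58 ± 1.03 to 1.37 ± 0.20 FPKM (SD, n = 3; -1.85 ± 0.14 SE, limma adjusted p = 1.06e-06). Its paralogue Tbl1x rose 1.19-fold, from 16.1 ± 0.65 to 19.1 ± 1.3 FPKM (0.23 ± 0.08 SE, limma adjusted p = 0.0242, or 0.0537 with replicates 2 and 3 only), and 1.44-fold when LPS followed IL-4 (limma adjusted p = 0.000287). Gps2, a small core subunit, fell 1.51-fold with LPS, from 40.2 ± 0.15 to 26.6 ± 2.5 FPKM (-0.58 ± 0.10 SE, limma adjusted p = 0.000328), which was not called under median scaling (-0.18, adjusted p = 0.125). IL-4 lowered Gps2 1.23-fold (limma adjusted p = 0.0392, or 0.109 with replicates 2 and 3 only) and Tbl1x 1.27-fold (limma adjusted p = 0.0118).

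Hdac8, the remaining class I enzyme, showed a different order from Hdac3. It lay at 3.52 ± 0.54 FPKM (SD, n = 3) in control, 3.36 ± 0.60 with IL-4, 1.27 ± 0.07 with LPS and 2.48 ± 0.27 with both agents. LPS lowered Hdac8 2.78-fold (-0.99 ± 0.12 SE, limma adjusted p = 2.54e-05), and its LPS response after IL-4 was smaller by 0.67 ± 0.17 (limma adjusted p = 0.0342, or 0.054 under quantile normalization and 0.121 with replicates 2 and 3 only). Hdac9, the remaining class IIa gene, stayed between 0.23 and 0.92 FPKM in the 12 samples and was not tested.

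The acetyltransferases that oppose deacetylases, Ep300 (p300) and Crebbp (CBP), were set against class I enzymes within each sample. Ep300 lay at 19.2 ± 1.6 FPKM (SD, n = 3) in control, 13.5 ± 1.0 with IL-4, 15.4 ± 0.39 with LPS and 10.9 ± 1.5 with both agents. Crebbp lay at 4.67 ± 0.58, 3.84 ± 0.79, 3.69 ± 0.17 and 3.03 ± 0.20 FPKM in the same order. IL-4 lowered Ep300 1.42-fold (-0.48 ± 0.10 SE, limma adjusted p = 0.0033) and, under LPS, 1.41-fold (-0.47 ± 0.10 SE, limma adjusted p = 0.00428), whereas Crebbp passed in none of the comparisons (0.79 to 0.82 of the reference level in each, the smallest limma adjusted p being 0.0547), although its LPS difference of -0.27 turned to 0.28 under quantile normalization (adjusted p = 0.0438). With replicates 2 and 3 only, Crebbp was called lower with IL-4 (-0.29), with LPS (-0.22), with LPS after IL-4 (-0.16) and in IL-4+LPS against LPS (-0.23). The sum of both over the class I sum was 0.49 ± 0.08 (SD, n = 3) in control, 0.33 ± 0.04 with IL-4, 0.37 ± 0.02 with LPS and 0.28 ± 0.05 with both agents. Control samples had the highest ratios, and the 3 treated groups overlapped in part.

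Related complexes were described as lists, by counts beside the counts of all rows. Of 59 listed genes 55 were tested: 2 rose and 17 fell with IL-4, and 7 rose and 38 fell with LPS. Of all rows 16.0% rose and 21.0% fell with IL-4, and 16.9% rose and 57.7% fell with LPS. The median log2 differences of the listed genes were -0.27 for IL-4 and -0.54 for LPS (all rows -0.05 and -0.44), and under median scaling, where 27.9% of all rows were higher and 37.8% lower with LPS, the LPS counts were 12 and 24 with a median of -0.17. By list, the LPS counts of risen and fallen genes were 0 and 3 of 3 tested for the other zinc-dependent deacetylases, 1 and 5 of 7 for the sirtuins, 1 and 2 of 3 for the NCoR partners, 1 and 7 of 11 for the SIN3 complex and 2 and 5 of 9 for the NuRD complex. They were 1 and 2 of 3 for the CoREST complex, 0 and 8 of 10 for acetyltransferases and coactivators, 0 and 4 of 5 for the H3K27 methylation genes, 0 and 2 of 3 for the MEF2 factors, and 1 and 0 of 1 for BCOR, the BCL6 partner. With IL-4, the 2 risen genes, named after their values were seen, were Gatad2a (0.53 ± 0.13 SE, limma adjusted p = 0.00798) and Mbd3 (0.54 ± 0.16 SE, limma adjusted p = 0.0246) of the NuRD list, and the 17 fallen genes were spread as 2 of the zinc-dependent deacetylases, 2 sirtuins, 2 NCoR partners, 3 of the SIN3, 2 of the NuRD and none of the CoREST complex, 4 acetyltransferases and coactivators, 1 H3K27 methylation gene and 1 MEF2 factor. When LPS followed IL-4, 7 of the 55 rose and 36 fell (15.0% and 57.9% of all rows), with a median of -0.44. Those counts became 14 and 20 under median scaling (median -0.03; 25.6% and 33.5% of all rows) and 9 and 19 under quantile normalization (22.0% and 37.3%). IL-4+LPS cells had 4 higher (Hdac8, Ing1, Ncoa3, Suds3) and 12 lower than LPS cells, against 15.0% and 15.8% of all rows. The LPS response differed with IL-4 for 3 of the 55 (Hdac8, Ing1 and Ncoa3), which all had a higher value after pretreatment (4.58% of all rows), and these names, too, were taken after the values were seen.

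**Figure D4:**
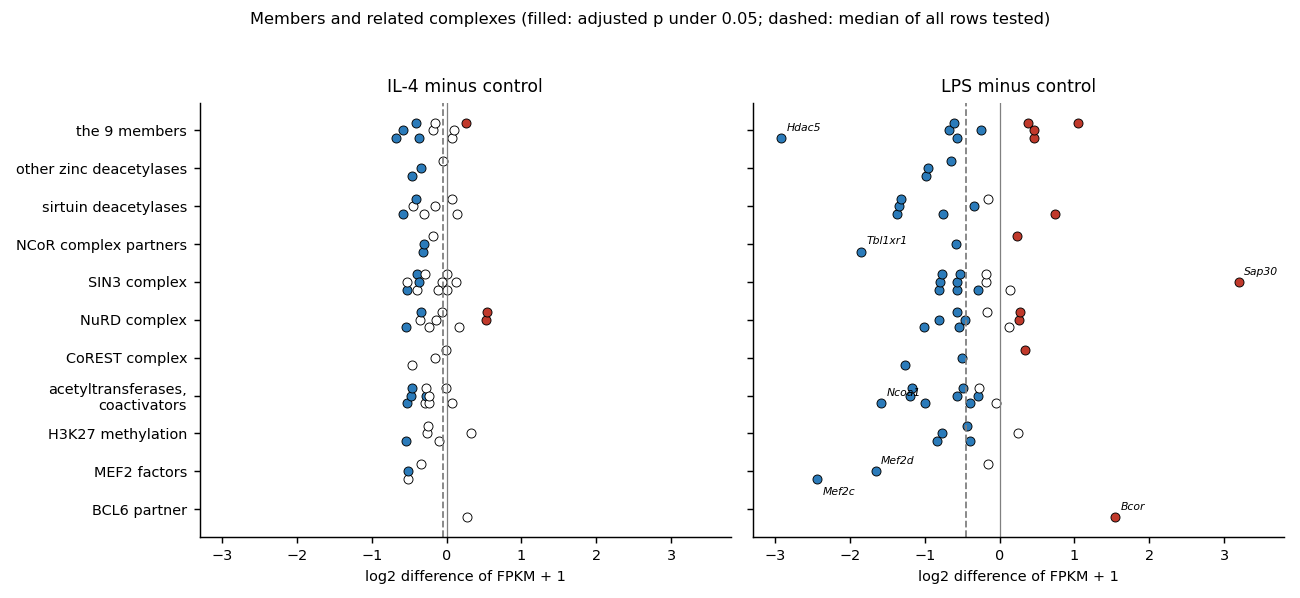
Differences of the 9 members and of the listed genes of related complexes after IL-4 (left) and LPS (right), on log2(FPKM + 1) (horizontal axes); each point is a gene, filled where adjusted p was under 0.05 (red higher, blue lower), the dashed line is the median of all rows tested, and genes beyond 1.5 are named. With IL-4 2 of 55 listed genes rose and 17 fell, and with LPS 7 rose and 38 fell.

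Genes that the study itself had picked as repressed by IL-4 with a part of HDAC3 were read in these samples. The study drew in part on public microarrays of macrophages without HDAC3. These genes were picked for falling with IL-4, so a fall here is no evidence from an unselected set. Of the 4 (Fos, Lyz1, Lyz2, Smad3), 3 fell with IL-4, and Fos gave -0.48 (limma adjusted p = 0.42). Fos lay between 78.6 and 99.2 FPKM in control and between 49.9 and 76.0 in IL-4, without overlap, and was called lower with replicates 2 and 3 only (-0.40, adjusted p = 0.0105). Lyz2, a lysozyme gene, lay at 16116 ± 668 FPKM (SD, n = 3) in control and 4873 ± 162 in IL-4, and Lyz1 at 1124 ± 17 and 372 ± 31. Both are near-identical copies, between which reads could be split, and their IL-4 falls were 3.31-fold and 3.02-fold (limma adjusted p = 6.01e-08 and 2.17e-07). All 4 were lower with LPS, but neither Lyz1 nor Lyz2 was so under median scaling.

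The order of the members' levels changed between groups. In control, Hdac5 led with 37.0 ± 2.9 FPKM (SD, n = 3), above all others, while Bcl6, Hdac3, Ncor1 and Hdac2 followed with neighbours whose ranges overlapped. In IL-4, Hdac3, Hdac5 and Hdac2 led with overlapping ranges, and Bcl6, Ncor1 and Hdac1 followed without overlap. In LPS, Bcl6 led with 46.3 ± 1.1 FPKM, ahead of Hdac2, Hdac1, Hdac3 and Ncor1, each separated from the next. In IL-4+LPS, Hdac2 led with 22.8 ± 0.98 FPKM, and Hdac3, Hdac1, Bcl6, Ncor1 and Kdm6b followed in a chain of overlapping neighbours. Hdac4 and Kdm6b were the lowest pair in control and IL-4, with overlapping ranges, and Hdac4 was the lowest in LPS and IL-4+LPS.

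For each member, those genes whose log2 levels followed it most closely over the 12 samples were named, as a description that rests on 4 groups of 3 samples and among 10191 genes. Hdac5 was followed by Lfng (Pearson r = 0.998; mean FPKM of 27.8 in control, 17.7 with IL-4, 2.66 with LPS and 1.60 with both) and Fbxo21 (0.998). Bcl6 was followed by Rnf103 (0.975; 11.7, 9.46, 21.0 and 6.51 FPKM) and Spen (0.969; 10.3, 8.73, 21.7 and 7.89 FPKM), both highest in LPS and lowest in IL-4+LPS. Kdm6b was followed by Slamf1 (0.968; 0.11, 0.47, 3.77 and 21.0 FPKM) and Gypc (0.964; 3.19, 4.76, 5.80 and 17.1 FPKM), both highest in IL-4+LPS. Hdac3 was followed by Ei24 (0.993) and Ano8 (0.992), Ncor1 by Rilpl1 (0.991) and Pink1 (0.991), and Hdac7 by Dctn1 (0.981). Hdac1 was followed by Ptpn23 (0.974) and Dpf2 (0.969), Hdac4 by Skiv2l (0.965) and Dnm2 (0.962), and Hdac2 by Tnfaip8 (0.943) and Dld (0.939).

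In mm10, as the tables give them, the members are protein-coding genes at chr4:129516104-129542646 (Hdac1, minus strand), chr10:36974544-37001888 (Hdac2, plus), chr18:37936971-37954988 (Hdac3, minus), chr1:91932749-92148393 (Hdac4, minus), chr11:102195747-102230172 (Hdac5, minus), chr15:97792664-97844502 (Hdac7, minus), chr11:62316426-62457332 (Ncor1, minus), chr16:23965052-23988612 (Bcl6, minus) and chr11:69398518-69413675 (Kdm6b, minus). For Hdac1, 58.7% of the 50-base words of its longest transcript recur in other annotated genes, chiefly Gm10093. Of Hdac4 exon bases 22.4% overlap the antisense gene Gm26720, and of Kdm6b exon bases 4.11% overlap Kdm6bos, and reads of such pairs cannot be told apart without strand. Each of the other 6 members shared at most 1.26% of its exon bases with another gene.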

How the data were processed

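The deposited tables give FPKM per gene and sample. According to the labels and the study's methods, the authors sequenced poly-A libraries as paired reads of 100 bases, aligned them to mm10 with TopHat2 2.0.7 and estimated FPKM with Cufflinks 2.0.2, per sample, without pooling; the gene annotation is not given in the sources used here. The absolute depth is unknown, so no counting intervals are given. FPKM is relative to all fragments mapped in a sample, so a few very abundant transcripts can lower all others. The 12 tables were joined by gene and locus, and the groups were taken from the labels.

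Rows with at least 1 FPKM in at least 1 sample (11191) were tested on log2(FPKM + 1) with limma 3.58.1 in R 4.3.3 (intensity trend, 4 group means over all 12 samples, no block), with Benjamini-Hochberg adjustment over all rows within each of 5 comparisons. No count test was run. The script was tested on simulated data. Sequences came from RefSeq promoter windows (250 bases before to 50 after a start) of GRCm38.p6; 6 members had 11 windows, and Hdac1, Hdac3 and Kdm6b had none. Motifs were searched on both strands. Alternatives were another pseudocount (0.1), 2 other filters, 2 scalings, no trend, a replicate block, fits of the compared groups only, replicates 2 and 3 only, and each sample left out.

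The members and lists were chosen with earlier results of these data known. The lists were the other zinc-dependent deacetylases, sirtuins, NCoR partners, SIN3, NuRD and CoREST complexes, acetyltransferases and coactivators, H3K27 methylation genes, MEF2 factors, the BCL6 partner BCOR with the paralogue Bcl6b, 4 study-picked genes and 5 treatment genes. Named list genes were partners or paralogues of members (Gps2, Tbl1x, Tbl1xr1, Hdac8, Hdac9, Kdm6a, Ep300, Crebbp) and list genes past adjusted p 0.05 with a log2 difference of at least 1 in IL-4 against control or in IL-4+LPS against LPS; the 2 genes with the highest Pearson r were named for each member, except Hdac7, for which 1 is given. Some genes that these rules take are not reported here.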

Additional observations from a re-analysis of the deposited data

Results flagged for a closer look

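The LPS response of Bcl6 differed between cells with and without IL-4 pretreatment, by a test of the difference itself: -1.48 on the log2 scale (95% interval -1.77 to -1.18, limma adjusted p = 0.000148). All 3 LPS samples lay above all 3 control samples, and all 3 IL-4+LPS samples lay below all 3 IL-4 samples. The fall with LPS after IL-4 lay 0.03 below the median of all rows. It was not called under median scaling (-0.04) or quantile normalization (-0.16). Bcl6 was the one member past the threshold for the difference between LPS responses among 9 tested. Groups of 3 samples are too small for the check of single samples that stand apart from their group.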

How the results depend on the processing

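The 45 differences of the members were recomputed 936 times: 860 kept direction and side of the threshold, 38 fell short of it, 21 passed it and 17 turned in sign. Of these, Hdac4 for LPS against control turned under median scaling (0.031) and quantile normalization (0.34), Hdac4 for IL-4+LPS against IL-4 under the same settings (0.13 and 0.37), and Hdac7 for IL-4+LPS against IL-4 likewise (0.005 and 0.18). Among values near 0, the difference between LPS responses ran from -0.031 to 0.185 for Hdac1 with each sample left out (below 0 in 4 of 12), from -0.055 to 0.106 for Hdac3 (below 0 in 4 of 12, and -0.009 under quantile normalization) and from -0.039 to 0.23 for Ncor1 (below 0 without IL-4+LPS replicate 1), and Kdm6b with IL-4 ran from -0.048 to 0.175 (below 0 without IL-4 replicate 2). The cause was not tested. The number of members called with IL-4 was 5 and dropped to 3 with only the compared groups, and leaving out each sample gave 2 to 5. For LPS against control and for LPS after IL-4 the numbers were 9 and 6, and leaving out each sample gave 7 to 9 and 6 to 8. The 4 higher and 5 lower with LPS became 4 and 2 under median scaling and 5 and 3 under quantile normalization, and the 2 higher and 4 lower with LPS after IL-4 became 3 and 2 and then 4 and 2. For IL-4+LPS against LPS it was 3, went to 5 with replicates 2 and 3 only, and lay at 2 to 4 with each sample left out. For the difference between LPS responses it was 1, became 2 under quantile normalization and with replicates 2 and 3 only, and lay at 1 to 3 with each sample left out (3 without IL-4 replicate 2, 2 without IL-4+LPS replicate 1).

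The labels do not say whether the replicate numbers pair the samples, and they were not taken to do so: 11 of 18 same-numbered pairs had deviations that correlated over 0.1 (0.002 to 0.386), though 9 of 12 samples correlated best with their own number. With the number as a replicate block, 5 members were called in IL-4+LPS against LPS and 2 in the difference between LPS responses (Bcl6, and Kdm6b at 0.69, adjusted p = 0.00794). The block also called Hdac7 in IL-4+LPS against LPS (-0.32, adjusted p = 0.0126) and against IL-4 (-0.32, adjusted p = 0.00645), Ncor1 in IL-4+LPS against LPS (-0.29, adjusted p = 0.00842) and Hdac1 with IL-4 (-0.19, adjusted p = 0.045). Over all rows the block took the calls for the difference between LPS responses from 512 higher and 518 lower to 1145 and 1095.

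The absolute depth is unknown, replicate 1 is the shallowest sample of each group, and the LPS comparisons depend on how samples of unequal composition are scaled. Differences of Ncor1, Hdac7 and Hdac4 with LPS rest on that choice, as do those of Bcl6 and Hdac2 with LPS after IL-4.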

Other observations

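Other genes of the lists, chosen after their values were seen, moved more with LPS than most members. Sap30, a subunit of the SIN3 complex, lay between 14.8 and 19.4 FPKM in control, 10.2 and 15.6 with IL-4, 150 and 167 with LPS and 117 and 134 with both agents, a 9.60-fold rise with LPS (limma adjusted p = 2.26e-08). Bcor, which encodes a corepressor that BCL6 binds, rose 3.32-fold with LPS (5.31 ± 0.26 to 17.6 ± 3.4 FPKM, SD, n = 3; limma adjusted p = 6.77e-06) and stayed at 15.0 ± 3.1 in IL-4+LPS, where Bcl6 was lowest. Mef2c, a MEF2 factor, fell 8.52-fold with LPS (11.9 ± 1.6 to 1.40 ± 0.50 FPKM, SD, n = 3; limma adjusted p = 1.25e-05).

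Stat6 itself lay at 72.9 ± 6.6 FPKM (SD, n = 3) in control, 65.2 ± 3.1 with IL-4, 39.0 ± 1.9 with LPS and 55.7 ± 2.8 with both agents. LPS lowered Stat6 1.87-fold without IL-4 (-0.88 ± 0.08 SE, limma adjusted p = 2.66e-06), and the LPS response after IL-4 was smaller in size by 0.66 ± 0.11 (limma adjusted p = 0.00443); after IL-4 it was -0.22 and turned to 0.19 under median scaling. Of the 5 treatment genes (Retnla, Arg1, Stat6, Il1b, Tnf), 2 rose and 1 fell with IL-4, and 2 rose and 2 fell with LPS. Tnf went from between 11.8 and 19.0 FPKM in control to between 1313 and 1416 in LPS. Il1b lay at 478 FPKM in IL-4+LPS replicate 1 and at 2317 and 2500 in the other replicates. With LPS alone, replicate 1 was also the lowest, at 1187 FPKM against 2247 and 2314 in replicates 2 and 3. IL-4+LPS against LPS gave -0.385 for Il1b, which did not pass the threshold (limma adjusted p = 0.671).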
